A study of Rattus norvegicus with 12 samples.

Results

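A set of 10 genes used as markers of adipocytes was followed library by library in rat skeletal muscle. They were the rows named Adipoq, Plin1, Cidec, Lep, Fabp4, Cfd, Retn, Scd, Pparg and Lipe in a table of counts for 24648 rows, chosen by symbol as a measure of fat within or around the muscle. Each symbol matched 1 row, and all 10 genes passed the filter on low counts, which kept 14225 genes. The animals were male rats, 540 days old. In the restriction groups the dams had received feed with 6% protein through gestation and lactation, and in the control groups they had received the control diet. The 12 libraries formed 4 groups of 3: restriction in set 2 (title numbers 32, 33 and 35), control in set 2 (23, 28 and 29), restriction in set 1 (12, 13 and 15) and control in set 1 (3, 8 and 9). The sets are those of the title numbers. The study took soleus and extensor digitorum longus, and the labels name no muscle for a library. No label states that the libraries of a group came from separate animals or litters, so the p-values rest on a spread that may be technical alone.

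White adipocytes store triglyceride in 1 large droplet coated by perilipin and CIDE proteins, release it by lipolysis, and secrete hormones such as adiponectin and leptin. Within a muscle they lie between the fibres and along the vessels and fascia. Muscle fibres hold small droplets of their own and share part of the machinery, including hormone-sensitive lipase, whereas the endothelium of muscle capillaries is known to carry the fatty acid binding protein FABP4. The 10 genes thus differ in how narrowly they mark adipocytes. In bulk muscle, fewer adipocytes and less RNA per adipocyte cannot be told apart.

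Total counts per library ran from 22829692 to 38313704. Control 23 had a scaling factor (TMM) of 0.815, below those of the other libraries (0.968 to 1.10). Set 2 was high in fast-fibre genes, which summed to between 142226 and 172241 CPM (counts scaled to the TMM-corrected size of the library) in set 2 and between 3734 and 10554 CPM in set 1. All 10 of these genes were higher in set 2, and all 8 slow-fibre genes tested were lower there. Genes of skeletal muscle of either type (Acta1, Ckm, Des and Ttn) summed to between 83208 and 130209 CPM over all 12 libraries. The difference in fibre type, any difference in the muscle taken, and the difference between sets cannot be told apart.

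Of the 10 adipocyte genes, 6 were lower in set 2 than in set 1, and none was higher. These were the hormone genes Adipoq, Lep and Retn, the secreted protease gene Cfd, and the droplet coat genes Plin1 and Cidec. Each of the 6 had all 6 set 2 libraries below all 6 set 1 libraries, with folds from 4.996-fold lower for Lep to 13.8-fold lower for Adipoq. The other 4 genes, Fabp4, Lipe, Pparg and Scd, did not pass the test. Among all 14225 genes, 39.5% passed in either direction, 19.6% passed as lower, and 9.77% had all set 2 libraries below all set 1 libraries. The median log2 fold change (set 2 minus set 1) over the 10 genes was -2.38, beside -0.01 over all genes tested.

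Adipoq encodes adiponectin, a hormone made by adipocytes that raises insulin sensitivity. It measured 3.09, 3.12 and 2.20 CPM in set 2 restriction libraries and 2.90, 1.45 and 1.33 CPM in set 2 controls, against 15.9, 37.5 and 27.3 CPM in set 1 restriction libraries and 64.4, 28.7 and 17.0 CPM in set 1 controls. The highest set 2 library thus stood at 3.12 CPM and the lowest set 1 library at 15.9 CPM. The log2 fold change (set 2 minus set 1) was -3.79 ± 0.34 (SE), with an adjusted p of 1.3e-06 in edgeR's quasi-likelihood test. The values rest on 39 to 92 counts per library in set 2 and 402 to 1918 in set 1. Control 3 alone held 1918 of those counts.

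Lep, which encodes leptin, the satiety hormone secreted in proportion to fat mass, was the sparsest of the 10. It had 0.570, 0.308 and 0.188 CPM in set 2 restriction libraries and 0, 0.148 and 0.967 CPM in set 2 controls. In set 1 it had 1.15, 1.27 and 1.26 CPM in restriction libraries and 2.49, 3.29 and 2.86 CPM in controls. Control 23 had no Lep count, which allows up to 0.161 CPM at 3 counts, for counting error only. The set difference was -2.32 ± 0.59 on the log2 scale (adjusted p = 0.0061, edgeR), and it was -3.40 without control 29, which held 29 of the 33 counts of the set 2 controls.

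Retn encodes resistin, a secreted protein of rodent adipocytes that opposes insulin action. Its level was 1.64, 0.583 and 1.41 CPM in set 2 restriction libraries and 0.590, 0.742 and 0.333 CPM in set 2 controls, against 3.69, 4.99 and 5.61 CPM in set 1 restriction libraries and 11.2, 8.23 and 3.70 CPM in set 1 controls. The sets did not overlap, and Retn was 7.37-fold lower in set 2 (log2 fold change -2.88 ± 0.35, adjusted p = 1.9e-05, edgeR). Cfd encodes adipsin, the complement factor D protease made in abundance by fat. It had 21.1, 16.5 and 23.0 CPM in set 2 restriction libraries and 10.8, 20.4 and 11.7 CPM in set 2 controls, against 45.4, 114 and 84.5 CPM in set 1 restriction libraries and 151, 109 and 58.8 CPM in set 1 controls. Cfd was 5.46-fold lower in set 2 (log2 fold change -2.45 ± 0.27, adjusted p = 7.4e-06).

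The 250 bases before the transcript starts of 3 of these hormone genes are shown because the genes fell together in set 2. They are RefSeq sequence of the assembly GRCr8, which is not the build of the counts, and are written 5′ to 3′ on the gene's strand. Capitals mark the motifs searched on both strands: TTGCGCAA, a palindrome bound by C/EBP factors, CCAAT, the box bound by NF-Y, and AGGTCA, the half-site of many nuclear receptors. Where the NF-Y box lies on the opposite strand it reads ATTGG here.
Lep, chr4:58626288-58626537 (+ strand): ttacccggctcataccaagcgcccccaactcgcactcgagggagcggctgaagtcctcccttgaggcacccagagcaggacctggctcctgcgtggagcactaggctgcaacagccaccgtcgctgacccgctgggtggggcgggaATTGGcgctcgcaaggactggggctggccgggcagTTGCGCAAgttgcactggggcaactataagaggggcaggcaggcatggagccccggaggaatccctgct
Adipoq, chr11:91240170-91240419 (- strand): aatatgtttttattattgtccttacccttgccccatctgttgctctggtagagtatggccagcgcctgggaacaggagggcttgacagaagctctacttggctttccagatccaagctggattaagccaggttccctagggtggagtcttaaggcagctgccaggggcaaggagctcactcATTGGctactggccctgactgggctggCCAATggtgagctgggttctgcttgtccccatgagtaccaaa
Retn, chr12:6508524-6508773 (+ strand): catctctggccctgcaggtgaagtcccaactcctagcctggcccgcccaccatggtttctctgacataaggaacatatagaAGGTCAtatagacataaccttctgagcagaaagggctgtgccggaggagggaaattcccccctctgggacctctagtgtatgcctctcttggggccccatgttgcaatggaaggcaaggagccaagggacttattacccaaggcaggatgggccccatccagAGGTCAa
Lep held TTGCGCAA from 69 to 62 bases before its start, a word found in 47 of 33469 rat promoters of this length (0.14%). Lep also held 1 CCAAT box, and Adipoq held 2, from 69 to 65 and from 42 to 38 bases before its start. CCAAT was in 34.0% of all promoters and in 4 of the 9 promoters of the adipocyte genes, which covered 8 genes, with 2 entries for Pparg. Retn held AGGTCA at 169 to 164 and at 7 to 2 bases before its start, and 14.1% of all promoters held it. AGGTCA repeated after 1 base was in 0.0508% of promoters and in none of the 9. None of these motifs overlapped another in the 3 sequences. A match describes these letters alone.

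The droplet coat genes behaved like Adipoq between the sets. Plin1 encodes perilipin 1, the adipocyte protein that guards the droplet against lipases. Its level was 1.58, 2.19 and 2.23 CPM in set 2 restriction libraries and 1.18, 1.26 and 0.667 CPM in set 2 controls, against 7.10, 14.9 and 13.9 CPM in set 1 restriction libraries and 26.98, 12.8 and 6.74 CPM in set 1 controls. The 2 sets did not overlap, and Plin1 was 9.48-fold lower in set 2 (log2 fold change -3.25 ± 0.34, adjusted p = 4.7e-06, edgeR). Cidec encodes the protein that fuses small droplets into the single large one of a white adipocyte. It measured 2.89, 1.34 and 1.66 CPM in set 2 restriction libraries and 0.965, 1.71 and 0.833 CPM in set 2 controls, against 7.46, 7.68 and 8.79 CPM in set 1 restriction libraries and 15.6, 16.1 and 12.2 CPM in set 1 controls. Again the sets were apart, with a log2 fold change of -2.83 ± 0.24 (adjusted p = 5.9e-07).

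**Figure D1:**
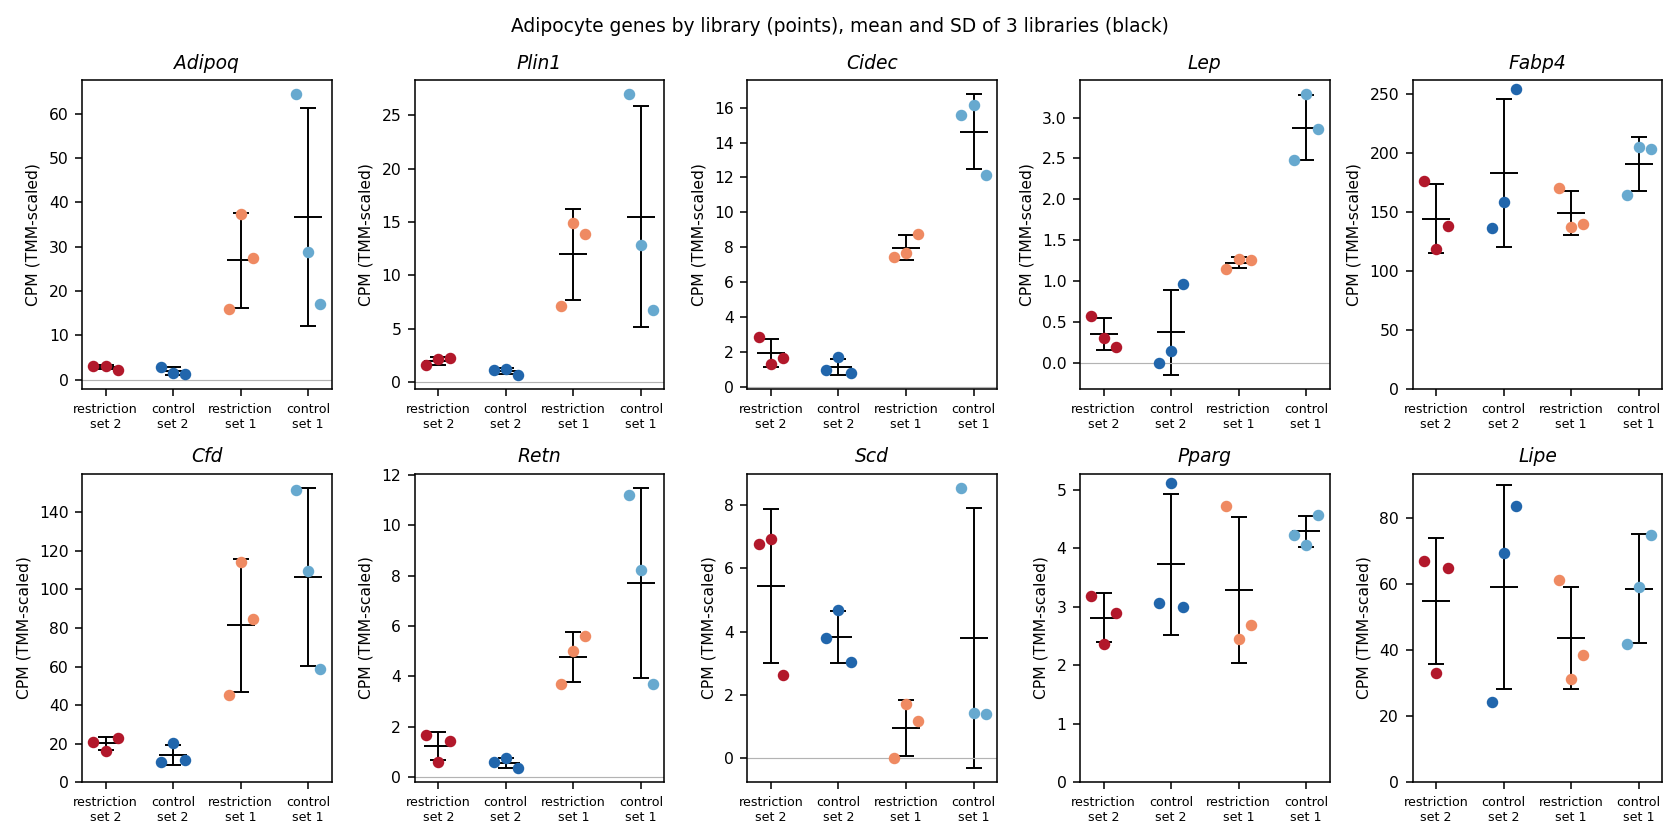
CPM (linear scale, TMM-scaled) of the 10 adipocyte genes in each of 12 libraries (points), with the mean and SD of the 3 libraries of a group (black). For Adipoq, Plin1, Cidec, Lep, Cfd and Retn all set 2 points lie below all set 1 points, whereas the sets overlap for Fabp4, Scd, Pparg and Lipe.

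The 4 remaining genes overlapped between the sets. Fabp4 encodes the fatty acid binding protein of adipocytes, which capillary endothelium also makes. It had 177, 119 and 138 CPM in set 2 restriction libraries and 137, 159 and 255 CPM in set 2 controls, against 170, 137 and 140 CPM in set 1 restriction libraries and 165, 205 and 203 CPM in set 1 controls. Its log2 fold change between sets was -0.05 ± 0.16 (adjusted p = 0.82). The endothelial marker list summed to between 254 and 329 CPM in set 2 and between 214 and 305 CPM in set 1, ranges that overlapped. Of its 7 genes, however, 3 passed as higher in set 2 and 1 as lower. The part of endothelium in the Fabp4 level was not tested.

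Lipe encodes hormone-sensitive lipase, which muscle fibres also use on their own droplets. It measured 66.8, 33.0 and 64.9 CPM in set 2 restriction libraries and 24.3, 69.2 and 83.6 CPM in set 2 controls, against 61.1, 31.4 and 38.5 CPM in set 1 restriction libraries and 41.9, 59.0 and 74.7 CPM in set 1 controls. The lowest control of each set, 23 and 3, was the control with the highest Adipoq of its set. The lowest restriction libraries, 33 and 13, were those with the highest Adipoq of their groups. In set 2 that was a near tie, with Adipoq at 3.12 CPM in restriction 33 and 3.09 CPM in restriction 32. Restriction 32 had the highest Lipe of that group. The difference between sets was 0.17 ± 0.28 on the log2 scale (adjusted p = 0.65).

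Pparg, the nuclear receptor that drives adipocyte differentiation, measured 3.19, 2.36 and 2.89 CPM in set 2 restriction libraries and 3.06, 5.12 and 3.00 CPM in set 2 controls. In set 1 it measured 4.72, 2.46 and 2.68 CPM in restriction libraries and 4.23, 4.06 and 4.58 CPM in controls. The 2 sets overlapped, with a log2 fold change of -0.21 ± 0.23 (adjusted p = 0.50). Pparg thus did not pass the test, while the hormone and droplet genes did.

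Scd encodes stearoyl-CoA desaturase, which makes the monounsaturated fatty acids of stored triglyceride. It had 6.74, 6.92 and 2.64 CPM in set 2 restriction libraries and 3.81, 4.68 and 3.03 CPM in set 2 controls, against 0, 1.73 and 1.18 CPM in set 1 restriction libraries and 8.53, 1.44 and 1.40 CPM in set 1 controls. Apart from control 3, every set 1 library was below every set 2 library. The count of 0 in restriction 12 allows up to 0.119 CPM at 3 counts. The log2 fold change was 1.25 ± 0.60 (adjusted p = 0.12), but it was 1.96 with an adjusted p of 0.017 without control 3, and 2.20 with an adjusted p of 0.040 in limma-voom. Its paralog Scd2, whose reads may be confused with those of Scd, stood at 0.58 ± 0.32 (adjusted p = 0.17).

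**Figure D2:**
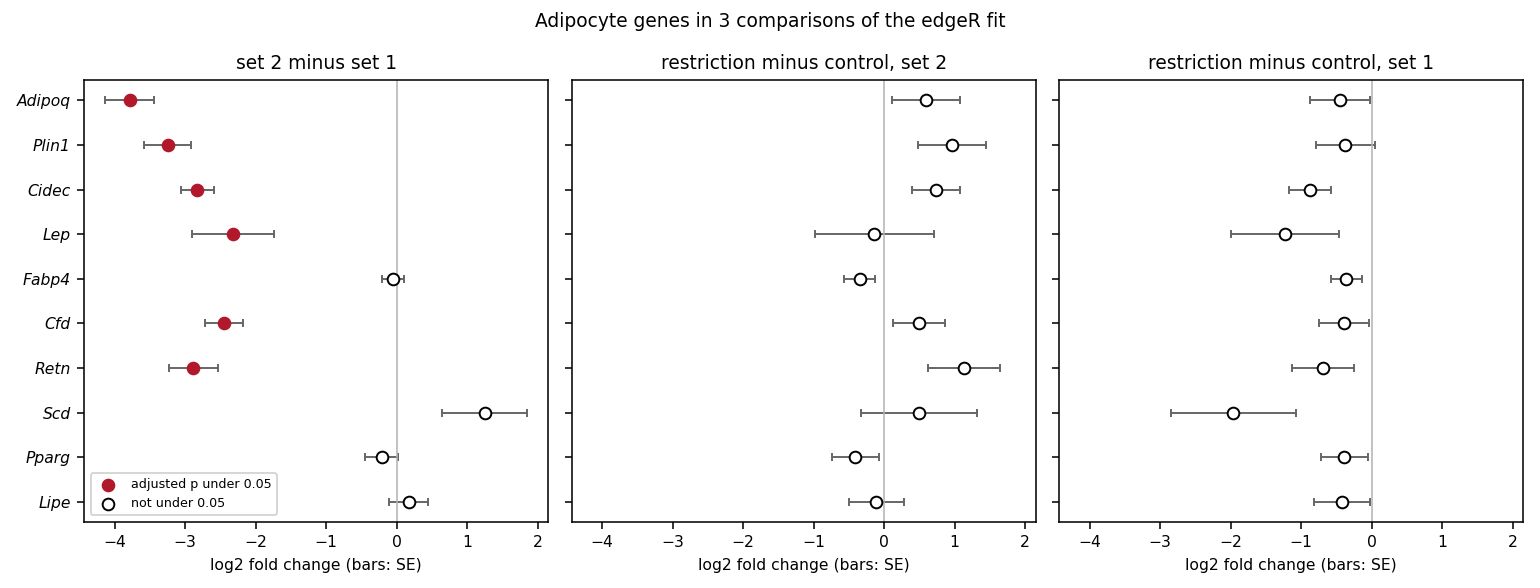
Log2 fold change with SE (bars) of the 10 genes for set 2 minus set 1 and for restriction minus control within set 2 and within set 1, with filled red points for an adjusted p under 0.05 in edgeR. Only the set comparison holds filled points, at -3.79 to -2.32, and the restriction comparisons hold none.

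Fabp4 and Lipe took most of the reads of the 10 genes in set 2. Together they made up 82.0% to 93.9% of the summed CPM in set 2 libraries and 42.1% to 73.0% in set 1 libraries. This is a share of reads, not corrected for gene length. The other 8 genes summed to between 21.9 and 40.8 CPM in set 2 and between 85.5 and 285 CPM in set 1. With all 10 genes counted, the sums were 284, 185 and 239 CPM in set 2 restriction libraries and 184, 264 and 360 CPM in set 2 controls, against 317, 353 and 324 CPM in set 1 restriction libraries and 491, 448 and 385 CPM in set 1 controls. The sum over all 10 therefore overlapped between the sets, and the sum without Fabp4 and Lipe did not. These 2 genes were already seen to overlap between the sets, so the smaller sum restates the gene values and adds no separate support.

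The ratio of each gene to Adipoq within a library shows which genes kept step with it. Plin1 counts were 0.407 to 1.01 times those of Adipoq in set 2 (median 0.607) and 0.397 to 0.509 times in set 1 (median 0.432). Taken as the highest over the lowest of the 12 libraries, this was the narrowest range of the 9 genes. The ratio of Cfd was 3.74 to 14.1 in set 2 and 2.35 to 3.81 in set 1, and that of Retn was 0.187 to 0.643 in set 2 and 0.133 to 0.287 in set 1. Cidec ran from 0.333 to 1.18 in set 2 and from 0.205 to 0.717 in set 1. These 4 ratios overlapped between sets, with higher medians in set 2.

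For Fabp4, Lipe, Pparg and Scd, whose CPM overlapped between the sets, the ratios were apart. Adipoq is the divisor and was 13.8-fold lower in set 2. A gene that does not differ between sets thus has a higher ratio there, and these ratios restate the Adipoq difference. Fabp4 stood at 38.1 to 191 times Adipoq in set 2 and 2.56 to 12.0 times in set 1, and Lipe at 8.39 to 62.7 times in set 2 and 0.651 to 4.40 times in set 1. Pparg ranged from 0.758 to 3.54 in set 2 and from 0.0655 to 0.296 in set 1. Scd ranged from 1.20 to 3.23 in set 2 and from 0 to 0.132 in set 1. The Lep ratio, on few counts, ranged from 0 to 0.725 in set 2 and from 0.0338 to 0.168 in set 1.

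**Figure D3:**
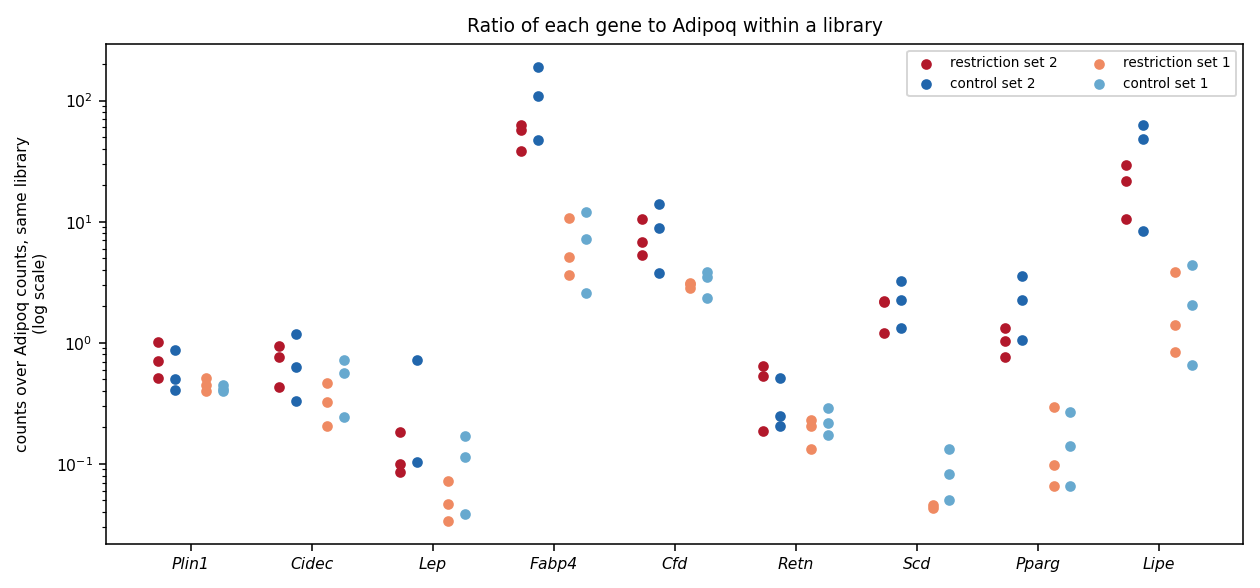
Counts of each gene over counts of Adipoq in the same library (log scale), set 2 left of set 1 for each gene, with the 2 ratios of 0 (Lep in control 23, Scd in restriction 12) not drawn. Plin1 stays between 0.397 and 1.01 in all 12 libraries, and Fabp4, Scd, Pparg and Lipe lie in ranges that do not overlap between sets.

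Of 11987 genes with a mean of at least 1 CPM, the one nearest to Adipoq over all 12 libraries was Tppp3, a tubulin-binding protein gene. Nearness was the root mean square difference of log2 CPM after centring each gene on its own mean, and it was 0.38 for Tppp3 beside a median of 1.94 over all genes. Plin1 was second (0.43), followed by Nnat, which encodes neuronatin (0.45), Ckap4, a membrane protein gene of the endoplasmic reticulum (0.56), the transcription factor gene Prox1 (0.57) and LOC102553715 (0.59). These profiles share the step between the sets, and each of the 5 genes outside the adipocyte list was lower in set 2, by -3.23 to -4.05 on the log2 scale. Retn ranked 20, Cidec 36, Cfd 52 and Lep 517, while Pparg ranked 5096, Fabp4 5945, Lipe 8913 and Scd 11767.

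Centred within each set, so that the step between sets was removed, the order changed. The 5 nearest genes outside the list were Mgst1, a glutathione transferase gene (0.27), Cebpa, the C/EBP transcription factor of adipocytes (0.30), E2f2, a cell cycle factor gene (0.30), Npr3, the clearance receptor for natriuretic peptides (0.30), and Col6a6, a collagen VI chain gene (0.31), beside a median of 0.66. Plin1 was the nearest of the adipocyte genes at rank 7 (0.33), then Cfd at rank 221 and Retn at rank 870. Cidec was at rank 4050, and Fabp4 (9440), Pparg (9753), Lipe (11357), Scd (11627) and Lep (11680) were among the more distant genes. Lep in control 23 and Scd in restriction 12 had 0 counts. Their log2 CPM there is set by the prior count of 2, so the distances of these genes depend partly on it. Ranks describe these 12 libraries and carry no test.

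**Figure D4:**
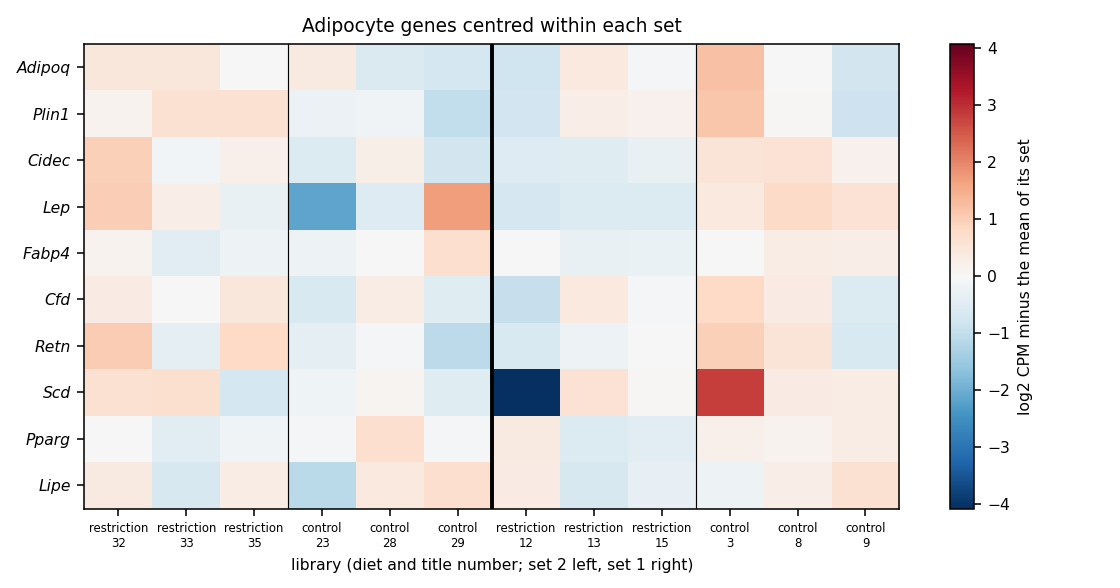
Log2 CPM (prior count 2) of the 10 genes in each library minus the mean of its set, with restriction and control libraries of set 2 left and those of set 1 right. Adipoq and Plin1 are darkest red in control 3, and the darkest tiles are Scd in restriction 12 and control 3, then Lep in controls 23 and 29.

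Restriction against control was tested within each set. In set 2 none of the 10 adipocyte genes passed in edgeR (adjusted p from 0.57 to 0.97), where 0% of all genes passed, 1222 genes had an unadjusted p under 0.05 and DESeq2 called 40 genes, none of them among the 10. Plin1 was the only adipocyte gene whose 3 restriction libraries all lay above its 3 controls, at 1.58 to 2.23 CPM in restriction libraries and 0.667 to 1.26 CPM in controls, and 7.01% of all genes did so. Its log2 fold change (restriction minus control) was 0.96 ± 0.48. Retn stood at 1.13 ± 0.51, Cidec at 0.74 ± 0.34, Adipoq at 0.60 ± 0.48, Scd at 0.50 ± 0.82 and Cfd at 0.50 ± 0.36. Below 0 were Lep at -0.14 ± 0.84, Lipe at -0.11 ± 0.39, Fabp4 at -0.35 ± 0.22 and Pparg at -0.41 ± 0.33. The Lep value turned to 2.03 without control 29. The median over the 10 was 0.50, beside -0.01 over all genes.

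In set 1 no adipocyte gene passed either (adjusted p from 0.54 to 0.87), while 0.00703% of all genes did, which was 1 gene, the mitochondrial tRNA gene Trnn at -3.74 ± 0.37. Without adjustment 1073 genes had a p under 0.05, and DESeq2 called 38 genes, again none of the 10. All 10 values were below 0, with a median of -0.43 beside -0.003 over all genes. Cidec averaged 7.97 ± 0.713 CPM in restriction libraries and 14.6 ± 2.14 CPM in controls (SD, n = 3 each), a log2 fold change of -0.87 ± 0.30 (adjusted p = 0.54). Lep averaged 1.23 ± 0.0657 CPM in restriction libraries and 2.88 ± 0.4001 CPM in controls, a log2 fold change of -1.23 ± 0.77 (adjusted p = 0.72). For these 2 genes each restriction library was below each control, as for 9.60% of all genes.

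Adipoq in set 1 averaged 26.9 ± 10.8 CPM in restriction libraries and 36.7 ± 24.7 CPM in controls, with a log2 fold change of -0.45 ± 0.42. It turned to 0.25 without control 3, and Plin1, at -0.37 ± 0.42, turned to 0.30. The direction of both thus rested on 1 library. Scd, at -1.96 ± 0.89, also depended on control 3, and was -0.54 without it. Among the others, Retn stood at -0.69 ± 0.44, Cfd at -0.39 ± 0.35, Fabp4 at -0.36 ± 0.22, Pparg at -0.38 ± 0.33 and Lipe at -0.42 ± 0.40. Leaving out 1 library moved Cfd from -0.71 to -0.04 and Retn from -1.03 to -0.32. None of these other genes changed sign, but the size of the Cfd value also depended on single libraries.

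Averaged over both sets, the restriction effect was within about 1 SE of 0 for Adipoq (0.08 ± 0.32), Plin1 (0.29 ± 0.32), Cidec (-0.07 ± 0.23), Cfd (0.05 ± 0.25), Retn (0.22 ± 0.33) and Lipe (-0.27 ± 0.28). Further from 0 were Fabp4 (-0.35 ± 0.16), Pparg (-0.40 ± 0.24), Lep (-0.68 ± 0.57) and Scd (-0.73 ± 0.60). Without control 3 Scd was at -0.01, and without control 29 Lep was at 0.40. None passed (adjusted p from 0.61 to 0.98), and 0.00703% of all genes did, again Trnn alone, with 1114 genes at an unadjusted p under 0.05 and 55 called by DESeq2.

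The difference between sets in the restriction effect (set 2 effect minus set 1 effect) was tested directly. It was above 0 in 9 of the 10 genes, with a median of 1.07 beside -0.004 over all genes, and none passed (adjusted p from 0.42 to 0.997). No gene of the whole table passed in edgeR (0%), 1351 had an unadjusted p under 0.05 and DESeq2 called 30, none of them among the 10. Cidec, at 1.61 ± 0.45 (adjusted p = 0.42), had a negative value in set 1 and a positive one in set 2, and these were not shown to differ. Retn stood at 1.83 ± 0.67, Scd at 2.46 ± 1.21, Plin1 at 1.33 ± 0.64, Lep at 1.09 ± 1.15, Adipoq at 1.04 ± 0.64 and Cfd at 0.88 ± 0.51. Lipe (0.32 ± 0.56), Fabp4 (0.01 ± 0.31) and Pparg (-0.02 ± 0.47) were near 0. Without control 3 the values were 1.05 for Scd, 0.36 for Adipoq and 0.67 for Plin1, without restriction 13 that of Scd was 3.17, and without control 29 that of Lep was 3.26.

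Other genes known as adipocyte markers were mixed between the sets. Of 14 such genes 12 were tested, and in set 2 against set 1 6 were lower and 2 higher, with a median of -1.51. Pck1 encodes an enzyme on the path from pyruvate to the glycerol phosphate of triglyceride. It was at -4.35 ± 0.66, Nnat at -3.68 ± 0.43 and the glycerol channel gene Aqp7 at -3.27 ± 0.40 (adjusted p from 1.4e-05 to 1.4e-04, edgeR). Cebpa was at -1.68 ± 0.36 (adjusted p = 0.0021). Adrb3, the adrenergic receptor of rodent fat, also passed as lower, on few counts. It had 0 to 7 counts in set 2 restriction libraries and 0 in each set 2 control, against 18 to 75 counts in set 1 restriction libraries and 0 to 39 in set 1 controls, so the sets overlapped.

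The 2 genes of that list that rose in set 2 were Gpd1 and Adig. Gpd1, an enzyme that makes glycerol phosphate and is also abundant in glycolytic muscle fibres, averaged 698 ± 121 CPM in set 2 restriction libraries and 836 ± 211 CPM in set 2 controls, against 52.7 ± 18.3 CPM in set 1 restriction libraries and 55.3 ± 21.1 CPM in set 1 controls. Adig, which encodes adipogenin, averaged 13.4 ± 3.68 CPM in set 2 restriction libraries and 22.0 ± 9.00 CPM in set 2 controls, against 1.96 ± 0.908 CPM in set 1 restriction libraries and 1.62 ± 0.901 CPM in set 1 controls. Their log2 fold changes were 3.82 ± 0.22 and 3.27 ± 0.32. Genes listed as adipocyte markers thus included both directions in whole muscle.

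Among other secreted products of fat, Rbp4, the retinol carrier, was lower in set 2 at -2.85 ± 0.32, and Rarres2, which encodes chemerin, at -0.74 ± 0.20. The receptors moved otherwise. Of 5 receptor genes, Adipor1, a receptor for adiponectin that muscle carries, rose by 1.11 ± 0.10 and the insulin receptor gene Insr by 0.61 ± 0.22, while Cdh13, a cell-surface binding protein for adiponectin, was at -1.03 ± 0.12. Insr hardly differed between controls, with means of 14.5 CPM in set 2 and 14.9 CPM in set 1. Its difference lay in the restriction libraries, with means of 22.9 CPM in set 2 and 9.55 CPM in set 1. Adipor2 (-0.13 ± 0.11) and the leptin receptor gene Lepr (1.12 ± 0.90) did not pass.

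Of 13 other regulators of adipocyte formation tested, 6 were higher in set 2 and none lower. Among all 14225 genes, 39.5% passed in either direction and 2832 genes passed as higher, so the count alone does not set the regulators apart. Cebpa (lower, -1.68 ± 0.36) and Pparg (-0.21 ± 0.23, not passing) were counted in the lists described before and not in this one. The 6 higher regulators included Nr1h3, a liver X receptor (1.73 ± 0.14), and Rxra, the partner of PPARγ (1.90 ± 0.22). Also among them were Zfp423, a factor of committed preadipocytes (0.87 ± 0.16), and Ppargc1a (0.69 ± 0.18). Uptake genes gave 3 lower and none higher of 8, with lipoprotein lipase, Lpl, at -2.09 ± 0.24, the transporter gene Slc27a1 at -1.87 ± 0.21 and Fabp3, the binding protein of heart and slow muscle, at -1.53 ± 0.23. Fabp3 and Fabp5 (-0.46 ± 0.21, adjusted p = 0.087) are paralogs of Fabp4, and reads they share are uncertain.

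Genes of lipolysis and the droplet outside the 10 were lower in 3 and higher in 1 of 11, with a median of -0.34. This count, and those of the uptake and synthesis lists, stand beside 39.5% of all genes that passed in either direction. None of the 3 lists passed more often than that share. The lower ones were Plin3 (-2.11 ± 0.17), Plin2 (-1.21 ± 0.11), both coats of small droplets in many cell types, and Bscl2 (-0.44 ± 0.14), and the higher one was Fitm2 (0.82 ± 0.22). Synthesis genes were lower in 3 and higher in 2 of 15. Lpin1, a phosphatidate phosphatase gene (1.78 ± 0.20), and the malic enzyme gene Me1 (0.61 ± 0.11) were higher. Fatty acid synthase, Fasn (-1.03 ± 0.38), Agpat2 (-0.97 ± 0.23) and Dgat1 (-0.40 ± 0.15) were lower. The sets overlapped for all 3 of these genes. Fasn had 3.23 to 6.17 CPM in set 2 libraries. In set 1 it had 5.24, 10.9 and 9.36 CPM in restriction libraries and 20.1 (control 3), 3.32 and 4.92 CPM in controls.

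**Figure D5:**
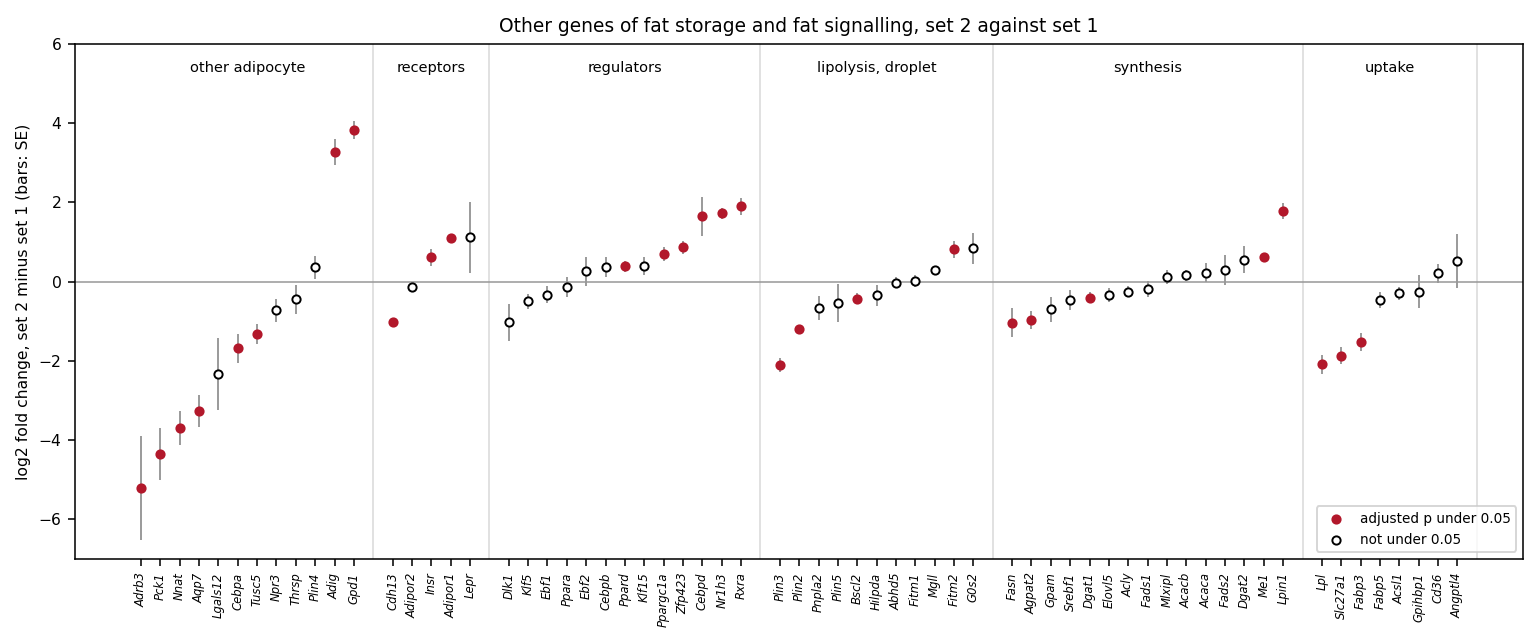
Log2 fold change (set 2 minus set 1, bars SE) of the tested genes in 6 lists of fat storage and fat signalling, with filled red points for an adjusted p under 0.05. Other adipocyte markers run from Adrb3 and Pck1 (-4.35) to Gpd1 (3.82), and the regulators hold 6 red points above 0 and none below.

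Of 5 markers of thermogenic fat, Ucp1, the uncoupling protein that defines brown fat, and Elovl3 had 0 counts in all 12 libraries. Prdm16, a factor of brown fat and other cells, had 0.529 to 2.71 CPM over the 12 libraries, and Dio2, a deiodinase gene, 0.375 to 1.71 CPM. Cidea, a droplet protein of brown and beige fat and a paralog of Cidec, had 1.58, 0.411 and 1.35 CPM in set 2 restriction libraries and 2.90, 1.00 and 4.001 CPM in set 2 controls, against 16.9, 9.60 and 13.4 CPM in set 1 restriction libraries and 26.4, 22.4 and 37.8 CPM in set 1 controls. It was lower in set 2 (log2 fold change -3.51 ± 0.34, adjusted p = 2.6e-06). With restriction it was at -1.24 ± 0.49 in set 2, -1.12 ± 0.43 in set 1 and -1.18 ± 0.32 over both sets (adjusted p = 0.46), and it did not pass in any of them.

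Markers of other cell types moved with the sets as well. All 9 macrophage genes were lower in set 2, with a median of -1.78, and summed to between 62.6 and 133 CPM in set 2 and between 230 and 562 CPM in set 1. Of 9 genes of fibro-adipogenic progenitors, the stromal cells of muscle that can become adipocytes, 8 were lower, with a median of -0.95, and the list summed to between 453 and 824 CPM in set 2 and between 1128 and 1482 CPM in set 1. Dpt (-1.83 ± 0.12), Pi16 (-1.76 ± 0.20) and the macrophage genes Lyz2 (-2.38 ± 0.23) and C1qa (-1.85 ± 0.23) were among them. No gene of these lists was at 0 in all libraries of a group. Their part in the set difference of the adipocyte genes was not tested.

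Vessel and tendon lists were mixed. Of 7 endothelial genes 3 were higher (Cdh5, Kdr and Tek) and 1 lower (Vwf). Of 5 genes of smooth muscle and pericytes 2 were higher (Rgs5 and Pdgfrb) and 2 lower (Cspg4 and Acta2). Of 6 tendon genes Fmod was higher and Scx and Tnmd were lower, and none of the 4 red blood cell genes passed. The tendon list summed to between 129 and 386 CPM in set 2 and between 132 and 342 CPM in set 1.

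No gene of these lists passed in a restriction comparison, and the gene with the smallest p of each fat list is given as a value. In set 2 these were G0s2, an inhibitor of the lipase ATGL (-1.91 ± 0.57), Agpat2 (-0.84 ± 0.32), Gpihbp1 (-1.10 ± 0.59), Rxra (0.70 ± 0.29), Insr (0.66 ± 0.32), Nampt (0.42 ± 0.26) and Adrb3, whose restriction libraries had up to 7 counts and whose controls had none. In set 1 they were Agt (-1.19 ± 0.35), Dgat1 (-0.68 ± 0.21), Fitm2 (-0.95 ± 0.31), Fabp3 (-0.80 ± 0.32), Nnat (-1.18 ± 0.53), Rxra (-0.73 ± 0.30) and Insr (-0.64 ± 0.32). Adjusted p-values ran from 0.46 to 0.63 in set 2 and from 0.53 to 0.66 in set 1 for the genes named in this paragraph so far. The opposite values of Rxra and Insr differed between sets by 1.43 ± 0.42 and 1.30 ± 0.45 (adjusted p = 0.42 and 0.45), which did not pass either. Over both sets the genes with the smallest p of their list included Fitm2 (-0.87 ± 0.22, adjusted p = 0.38), Dgat1 (-0.48 ± 0.15), Fabp3 (-0.69 ± 0.22), Dlk1 (-0.99 ± 0.47) and Cdh13 (-0.15 ± 0.12).

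Lists of other cells were also read for restriction. Progenitor genes had medians of 0.09 in set 2 and -0.04 in set 1, and macrophage genes of -0.22 in set 2 and 0.35 in set 1, where Lyz2 was at 0.90 ± 0.31. In set 1 the macrophage list summed to between 230 and 562 CPM in restriction libraries and between 239 and 424 CPM in controls, and the adipocyte genes had negative values there. Tendon genes were above 0 in 6 of 6 in both sets, with medians of 0.65 in set 2 and 0.68 in set 1, with Thbs4 at 1.14 ± 0.29 in set 2 and Fmod at 0.94 ± 0.28 in set 1. Red blood cell genes were below 0 in 4 of 4 in set 2, with a median of -1.69 and sums of 297 to 394 CPM in restriction libraries and 601 to 1960 CPM in controls. In set 1 their median was -0.49, and 3 of 4 were below 0. None of these genes passed, and their part in the values of the adipocyte genes was not tested.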

How the data were processed

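Muscle RNA was isolated with Trizol, and sequencing libraries came from Illumina's TruSeq RNA kit, per the labels. Trimmomatic, HISAT2, featureCounts and DESeq2, and the build Rnor_6.0, are named in the submitters' processing notes. Versions and settings were not given in the sources used here. If the kit version used kept no strand, antisense partners share reads with a gene, and strandedness was not tested. The authors deposited raw counts per gene, and a second table that equals these counts over 1 constant per library was not used.

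From the counts, edgeR 4.0.16 in R 4.3.3 (filterByExpr, TMM) fitted 1 mean per group over 12 libraries, with quasi-likelihood tests and Benjamini-Hochberg adjustment over 14225 genes at a threshold of 0.05. SE is the size of the log2 fold change over the square root of F. CPM was TMM-scaled, and log2 CPM used a prior count of 2. The comparisons were set 2 against set 1, restriction against control in each set and over both, and the difference between sets. Named were all 10 genes, from each other list up to 4 called genes by smallest p between sets and the smallest p elsewhere, and the 5 genes nearest to Adipoq. Further list genes (Pck1, Cebpa, Fasn, Npr3 and receptors) were chosen after their values were seen. The 10 genes and the lists were chosen with earlier results of these data known. Of 155 list genes, 153 matched by symbol and 2 by synonym. The code was tested on simulated counts. Alternatives were DESeq2 1.42.0, limma-voom (limma 3.58.1), other scaling, filters, libraries of 1 set, a replicate block and leaving out libraries. Between libraries of 1 group, chi-square over its degrees of freedom was 25.2 to 150, so none was a repeat within sampling noise. Floors of 3 counts cover counting error only. Some list genes are not reported here.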

Additional observations from a re-analysis of the deposited data

How the results depend on the processing

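The 6 adipocyte genes lower in set 2 passed under all 20 alternatives, with Adipoq from -4.00 to -3.43 and Lep from -3.40 to -2.07. Scd also passed in limma-voom, without control 3 and without controls 3 and 23 together (1.96), the last chosen after seeing the data, which made 7 adipocyte genes. No alternative called an adipocyte gene in a restriction comparison. Scaling by library size alone gave 2102 genes higher and 3384 lower in set 2, against 2832 and 2788 with TMM, and a median of -0.11, and the 6 genes passed there too.

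Genes called for restriction in set 1 were 1, against 38 in DESeq2, 3 in limma-voom, 6 with no filter on low counts, 5 with only the libraries of the set, 126 without controls 3 and 23, and 1 to 22 leaving out 1 library (22 without control 23). In set 2 they were 0, against 40 in DESeq2, 3 with no filter, 5 without controls 3 and 23, and 0 to 4 leaving out 1. Over both sets they were 1, against 55 in DESeq2, 0 in limma-voom, 11 with no filter, 147 without controls 3 and 23, and 0 to 8 leaving out 1. For the difference between sets they were 0, against 30 in DESeq2, 1 with no filter and 0 to 1 leaving out 1. The causes were not tested.

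Title numbers that differ by 20 may pair the libraries. Their deviations from the group means correlated at 0.175, 0.108, 0.147, 0.0791, 0.0979 and 0.105, not all over 0.1, so the pairing was not taken as given. In set 1, 5 of 6 libraries correlated best with their own number. The replicate block was a fixed term in edgeR between sets and for the difference, where Pparg was 0.0692, and a correlation (0.133) in limma-voom for restriction. There 3 genes were called in set 1 and 0 over both sets, and Lep in set 2 was 0.78, as in limma-voom with no block. No call on an adipocyte gene changed.

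Scd for restriction ran from -2.67 to -0.54 in set 1 and from -1.09 to -0.01 over both sets leaving out 1 library. Values that changed sign did not pass in any fit. Without controls 3 and 23, Adipoq was 0.24 and Plin1 0.30 for restriction in set 1, and Fabp4 was -0.0649 for the difference between sets. In limma-voom Lep was 0.78 for restriction in set 2 and Pparg 0.0702 for the difference, and Pparg was 0.0755 by library size alone. Leaving out 1 library moved Fabp4 between sets from -0.20 to 0.0243. For restriction in set 1 it moved Adipoq from -0.79 to 0.25 and Plin1 from -0.73 to 0.30, and in set 2 Lep from -0.66 to 2.03 and Lipe from -0.48 to 0.23. Over both sets the ranges were -0.10 to 0.43 for Adipoq, -0.26 to 0.13 for Cidec, -0.94 to 0.40 for Lep and -0.11 to 0.23 for Cfd. For the difference they were -0.16 to 0.33 for Fabp4, -0.20 to 0.33 for Pparg and -0.0531 to 0.65 for Lipe. Set 2 counts limit Lep, with 0 to 29 counts per library, and Retn, with 10 to 49.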

Other observations

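Plin4, a perilipin of adipocytes and of muscle fibres, did not pass between the sets (0.36 ± 0.29) and was laid out over the libraries like Lipe, not like Adipoq. It had 1066, 593 and 743 CPM in set 2 restriction libraries and 485, 1004 and 1142 CPM in set 2 controls, against 765, 301 and 416 CPM in set 1 restriction libraries and 436, 935 and 1206 CPM in set 1 controls. The lowest library of each group for Plin4 was also the lowest for Lipe, and for Pnpla2 and Gpihbp1 of the lipolysis and uptake lists. Plin4 and this reading were chosen after the values were seen, and no test was run on it. Rbp4 and Cebpa were laid out like Adipoq in set 1. Rbp4 had 4.88, 11.4 and 6.79 CPM in set 1 restriction libraries and 16.3, 7.94 and 4.55 CPM in set 1 controls, and Cebpa had 2.78, 8.67 and 4.56 CPM in restriction libraries and 9.71, 4.69 and 2.78 CPM in controls. In each group of set 1 the order of the 3 libraries was the same for Adipoq, Rbp4 and Cebpa. Fbn1, a gene of the progenitor list, had this order too, so the order was not particular to fat genes. No test was run on it.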
